A study of Saccharomyces cerevisiae with 2 samples.

Results

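The genes described here encode the protein parts of the yeast pre-mRNA splicing machinery together with the Sm and Lsm proteins. Members were taken by symbol from the array annotation: every single S. cerevisiae symbol made of PRP, SNU, CWC, LSM or MUD and a number, and the 9 symbols SMB1, SMD1, SMD2, SMD3, SME1, SMX2, SMX3, MSL1 and MSL5. This gave 57 genes, each with 1 probe set, out of 5449 S. cerevisiae genes measured. They comprised 7 Sm proteins, 9 Lsm proteins, 6 RNA helicases and 35 other splicing factors. Expression had been profiled on 2 Affymetrix arrays, 1 of haploid BY4742 cells on DR medium with 0.5% glucose and 1 of the same strain on AL medium with 2.0% glucose, where DR is dietary restriction and AL is ad libitum. Both cultures were of mating type alpha, carried the his3, leu2, lys2 and ura3 marker mutations, and were grown for 12 hours at 30°C in medium with 1% yeast extract and peptone, reaching a density (OD600) of 0.85 to 0.99. Each array comes from 1 culture of 1 laboratory strain. Such a bulk measurement cannot tell fewer cells with a transcript apart from less of it per cell.

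Splicing removes introns from nuclear transcripts. Small nuclear ribonucleoproteins (snRNPs), each an RNA with its proteins, assemble on the intron in order: U1 binds the start of the intron, U2 binds the branch point, and the tri-snRNP of U4, U6 and U5 joins before the Prp19 complex helps form the catalytic centre. Sm proteins form a ring around the snRNAs of U1, U2, U4 and U5, and the related Lsm proteins form a ring on U6 in the nucleus and another ring on mRNAs in the cytoplasm, where they promote decay. RNA helicases of the DEAD and DEAH families drive the machine from one state to the next. Few budding yeast genes have introns, but those of ribosomal proteins often do.

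The array labelled DR and the array labelled AL are called the labelled-DR and labelled-AL arrays below, and each ratio is the labelled-DR signal over the labelled-AL signal. This direction opposes the study's own ratios for these arrays, so exchanged labels would turn every sign given here. Each condition has a single array, so no difference could be checked against replicates and no test was run. Counts past 2-fold, the threshold of the study's methods, describe these arrays. Over all genes the log2 ratio had a median of −0.12. The alpha-specific genes that mark the mating type (MF(ALPHA)1, MF(ALPHA)2, STE3 and SAG1) had signals of 5174 to 6278 on the labelled-DR array and 222.6 to 1217 on the labelled-AL array. The members themselves ran from 53.0 to 2176 on the labelled-DR array, with a median of 312.4, and from 107.1 to 2071 on the labelled-AL array, with a median of 409.0. The array also carries 35 probe sets with lower-case versions of the same symbols, named for genes outside the S. cerevisiae table. These reached at most 15.0 on the labelled-DR array and 17.4 on the labelled-AL array, so every member lay above them. A stricter background is the highest signal of 9 genes deleted from the strain or silent in alpha cells. STE6 alone set it on both arrays, at 129.4 on the labelled-DR array and 281.6 on the labelled-AL array. The median of the 9 genes was lower, 24.6 on the labelled-DR array and 57.6 on the labelled-AL array. Under the stricter background lay 10 members on the labelled-DR array and 20 on the labelled-AL array. On both arrays 5 lay under it (SMD3, CWC21, CWC24, SNU56 and PRP24). A ratio that rests on such a signal is not exact, so the log2 ratio with low signals raised to the stricter background is given beside it as the raised value. For the 5 genes under it on both arrays the raised value is only the log2 ratio of the background levels, −1.12.

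Splicing genes stood lower on the labelled-DR array more often than higher. Of the 57 members, 19 (33.3%) were more than 2-fold lower on the labelled-DR array, where 24.3% of all genes were, and 8 (14.0%) were more than 2-fold higher, where 20.5% of all genes were. The other 30 lay within 2-fold. Past 3-fold stood 10 members on the lower side, against 12.7% of all genes, and 3 on the higher side, against 11.5%. With low signals raised, 24 members were more than 2-fold lower, where 32.1% of all genes were. On the higher side stood 3, where 14.1% of all genes did. CWC22, PRP11, PRP39, SNU114 and SNU66 were no longer past 2-fold on the higher side. CWC24, PRP24, SMD2, SME1 and SNU56 passed it on the lower side. The 24 include the 5 genes under the stricter background on both arrays, whose raised value of −1.12 is past 2-fold by construction. As deposited, the median log2 ratio of the members was −0.48, and the ratio was below 1 for 38 members and above 1 for 19. The classes differed: the median log2 ratio was −1.16 for Sm proteins, −1.001 for Lsm proteins, −0.26 for helicases and −0.21 for the other factors. Within the last class it was 0.38 for U2 and branch point proteins (−0.12 with signals raised to the stricter background), 0.16 for tri-snRNP and U6 proteins, −0.61 for U1 proteins and −1.04 for the Prp19 complex and step factors. The tri-snRNP median was −0.29 with raised signals, −0.08 with the median background signal added and −0.20 with the trend on gene length removed, so neither positive median held its sign throughout.

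**Figure D1:**
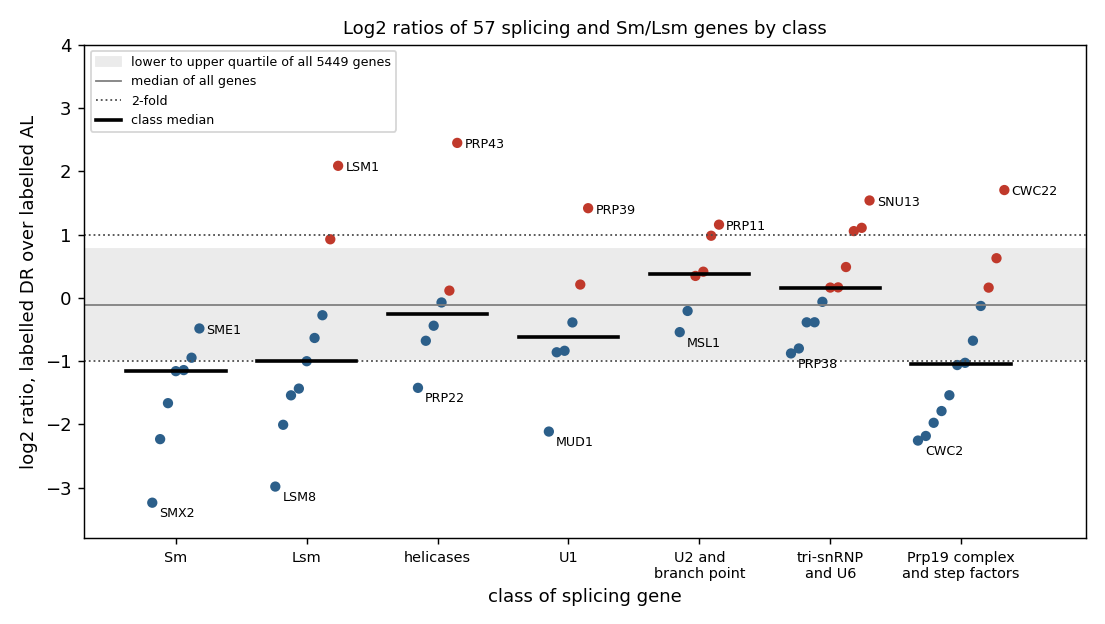
Log2 ratio of each of the 57 genes (labelled-DR over labelled-AL, 1 point per gene, red above 0 and blue below 0), by class, with the class median as a black bar, the span between the quartiles of all 5449 genes in grey and dotted lines at 2-fold. All 7 Sm genes lie below 0 and the Lsm genes run from −2.98 to 2.09, while the U2 and tri-snRNP classes have medians above 0 (−0.12 and −0.29 with signals raised to the stricter background, and SME1 lies above 0 with the trend on gene length removed).

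All 7 genes of the Sm ring had lower signals on the labelled-DR array. Of the 7, 5 (71.4%) were more than 2-fold lower, where 24.3% of all genes were. With the trend on gene length removed, however, SME1 turned to a log2 ratio of 0.49. SMX2 encodes SmG of the ring. Its signal was 101.5 on the labelled-DR array and 956.7 on the labelled-AL array, a log2 ratio of −3.24 (raised −2.89) and the lowest of all members, at percentile 2.24 of the ratios of all genes. SMX3, encoding SmF, gave 99.2 on the labelled-DR array and 466.2 on the labelled-AL array (log2 ratio −2.23, raised −1.85). SMD1, the SmD1 gene, gave 356.3 on the labelled-DR array and 1129 on the labelled-AL array (−1.66). These 3 genes were each more than 3-fold lower. The next 2, SMD3 for SmD3 and SMB1 for SmB, were close to each other in ratio. SMD3 read 90.0 on the labelled-DR array and 200.9 on the labelled-AL array (log2 ratio −1.16), both under the stricter background, and SMB1 read 401.6 on the labelled-DR array and 886.2 on the labelled-AL array (−1.14). The remaining 2 lay within 2-fold as deposited and past it with low signals raised, since their labelled-AL signals lay under the stricter background. SMD2, for SmD2, had 130.9 on the labelled-DR array and 252.2 on the labelled-AL array (log2 ratio −0.95, raised −1.11, and −1.04 with the trend on signal removed), and SME1, for SmE, had 136.2 on the labelled-DR array and 190.5 on the labelled-AL array (−0.48, raised −1.05). SmE, SmF and SmG sit together in the ring as a subcomplex, and SMX2 differed 9.43-fold between the arrays (7.39-fold raised) where SME1 differed 1.40-fold (2.07-fold raised).

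The Lsm proteins form 2 rings. Lsm2 to Lsm7 are shared by both rings, Lsm8 completes the nuclear ring on U6, and Lsm1 replaces it in the cytoplasmic ring that promotes removal of the mRNA cap. LSM8 read 53.0 on the labelled-DR array and 418.7 on the labelled-AL array, a log2 ratio of −2.98 at percentile 2.66 of all genes, but its labelled-DR signal lay under the stricter background (raised −1.69). LSM1 read 1712 on the labelled-DR array and 403.3 on the labelled-AL array, a log2 ratio of 2.09 at percentile 93.2. The genes that distinguish the rings thus lay on opposite sides, 5.07 apart on the log2 scale as deposited and 3.78 apart with low signals raised. All 6 shared genes were lower on the labelled-DR array, with a median log2 ratio of −1.22. Of the 6, 4 (66.7%) were more than 2-fold lower, where 24.3% of all genes were. With the trend on gene length removed, however, LSM3 turned to 0.73 and the median was −0.38. LSM5 gave 249.1 on the labelled-DR array and 1001 on the labelled-AL array (log2 ratio −2.01), although its coding span overlaps by 239 bp with YER145C-A on the other strand. LSM7 gave 199.6 on the labelled-DR array and 580.6 on the labelled-AL array (−1.54), and LSM6 gave 250.5 on the labelled-DR array and 676.8 on the labelled-AL array (−1.43). LSM2 lay almost at the threshold, at 632.1 on the labelled-DR array and 1266 on the labelled-AL array, a 2.002-fold difference. The shared genes LSM4 and LSM3 lay within 2-fold. LSM4 had 484.7 on the labelled-DR array and 752.3 on the labelled-AL array (log2 ratio −0.63). LSM3 had 345.8 on the labelled-DR array and 418.4 on the labelled-AL array (−0.27). LSM12, an Lsm-domain protein that belongs to neither ring, stood with LSM1 above 1: its signal was 718.0 on the labelled-DR array and 378.2 on the labelled-AL array (0.92), within 2-fold.

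**Figure D2:**
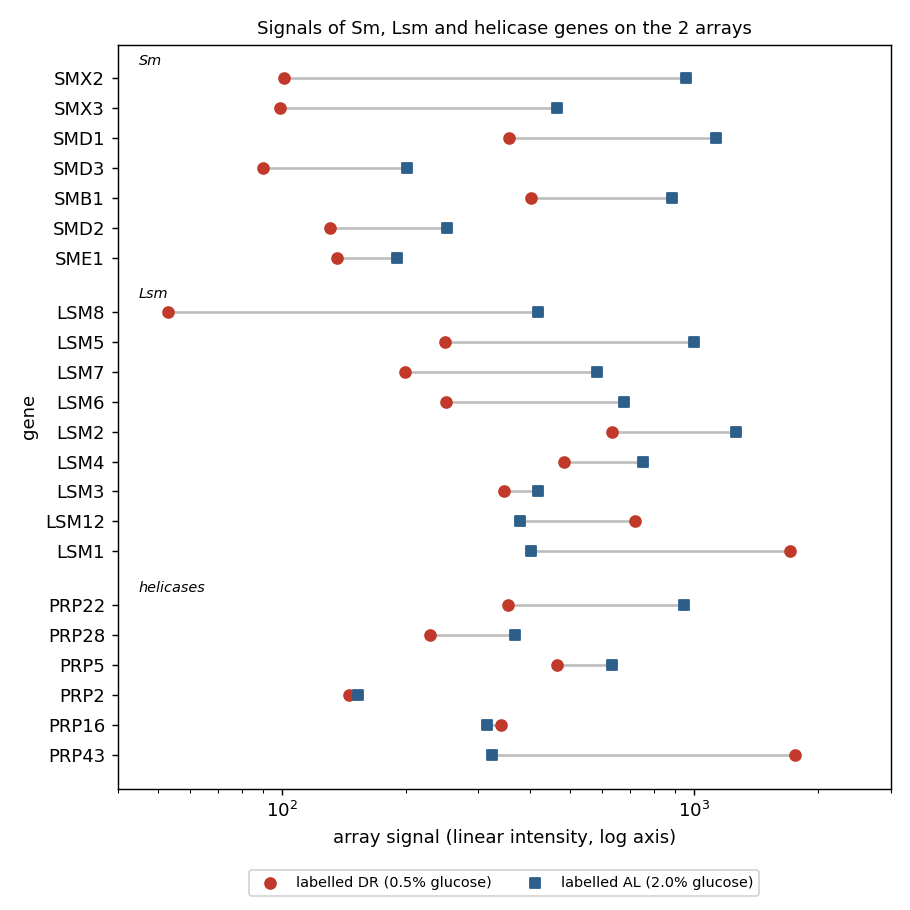
Signal of each Sm, Lsm and helicase gene (linear intensity, log axis) on the labelled-DR array (red circles) and the labelled-AL array (blue squares), sorted by ratio within each class. The labelled-DR point lies left of its partner for all 7 Sm genes, 7 of the 9 Lsm genes and 4 of the 6 helicase genes, and far to the right for LSM1 (1712 and 403.3) and PRP43 (1763 and 323.2).

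Among the 6 helicases, 4 lay within 2-fold and the other two stood on opposite sides. PRP43, a DEAH helicase that takes apart the spliceosome after splicing and also acts in ribosome assembly, read 1763 on the labelled-DR array and 323.2 on the labelled-AL array, a log2 ratio of 2.45 and the highest of all members. PRP22 releases the spliced mRNA. It read 354.1 on the labelled-DR array and 949.0 on the labelled-AL array (log2 ratio −1.42). The earlier steps showed smaller differences. PRP28, which exchanges U1 for U6 at the start of the intron, had 229.6 on the labelled-DR array and 367.5 on the labelled-AL array (−0.68), and PRP5, which helps U2 bind, had 466.0 on the labelled-DR array and 632.5 on the labelled-AL array (−0.44). PRP2 and PRP16, which act before the first and the second chemical step, were the closest to equal as deposited: PRP2 had 145.7 on the labelled-DR array and 153.3 on the labelled-AL array (−0.07, raised −0.95), and PRP16 had 341.1 on the labelled-DR array and 315.2 on the labelled-AL array (0.11). BRR2 and SUB2, splicing helicases outside the symbol rule, were within 2-fold as well. BRR2, which unwinds U4 from U6, had 689.1 on the labelled-DR array and 562.1 on the labelled-AL array (0.29), and SUB2, which also acts in mRNA export, had 6829 on the labelled-DR array and 5334 on the labelled-AL array (0.36).

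The U1 proteins ranged widely. MUD1, which binds the U1 RNA directly, read 478.7 on the labelled-DR array and 2071 on the labelled-AL array (log2 ratio −2.11). PRP39, another U1 protein, stood the other way at 396.0 on the labelled-DR array and 148.4 on the labelled-AL array (1.42), where the labelled-AL signal lay under the stricter background. Its raised value, 0.49, was within 2-fold. The 4 others, SNU56, PRP40, SNU71 and PRP42, had log2 ratios between −0.86 and 0.21. PRP42, the U1 partner of PRP39, read 572.2 on the labelled-DR array and 494.8 on the labelled-AL array (0.21), 1.21 below PRP39 on the log2 scale as deposited and 0.28 below it raised. SNU56 had 95.8 on the labelled-DR array and 173.9 on the labelled-AL array (−0.86), both under the stricter background.

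Of the 6 U2 and branch point genes, 1 (16.7%) was more than 2-fold higher as deposited, where 20.5% of all genes were, and 4 had a ratio above 1. With low signals raised none was past 2-fold and 2 had a ratio above 1. PRP11, PRP21 and PRP9 make up SF3a, which joins U2 to the branch point, and all 3 were higher on the labelled-DR array, although PRP9 turned to −0.71 with signals raised to the stricter background. PRP11 gave 404.0 on the labelled-DR array and 181.3 on the labelled-AL array (log2 ratio 1.16, raised 0.52, and 0.84 with the median background signal added). PRP21 gave 382.1 on the labelled-DR array and 193.6 on the labelled-AL array (0.98, raised 0.44). PRP9 gave 172.0 on the labelled-DR array and 129.2 on the labelled-AL array (0.41). All 3 signals on the labelled-AL array lay under its stricter background. MSL5, the branch point binding protein, and its partner MUD2 lay near equal, with 602.9 on the labelled-DR array and 696.0 on the labelled-AL array for MSL5 (−0.21), and 274.4 on the labelled-DR array and 215.9 on the labelled-AL array for MUD2 (0.35, raised −0.04). MSL1, a U2 protein that binds its RNA, had 186.0 on the labelled-DR array and 270.8 on the labelled-AL array (−0.54, or 0.32 with the trend on gene length removed).

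Of the 11 tri-snRNP and U6 genes, 3 passed 2-fold on the high side of the labelled-DR array and none on its low side as deposited. With low signals raised 1 passed on each side, SNU13 and PRP24, but PRP24 lay under the stricter background on both arrays. With the median background signal added 1 passed, on the high side. SNU13 binds U4 and also the box C/D RNAs that guide ribosomal RNA modification. It read 2176 on the labelled-DR array and 749.2 on the labelled-AL array (log2 ratio 1.54). SNU66, a tri-snRNP protein, read 230.5 on the labelled-DR array and 107.1 on the labelled-AL array (1.11), a direction that turned to −0.29 with low signals raised to the stricter background. SNU114, the GTPase of U5, read 391.0 on the labelled-DR array and 188.3 on the labelled-AL array (1.05, raised 0.47). PRP8, the large U5 protein at the heart of the catalytic centre, had 721.3 on the labelled-DR array and 514.8 on the labelled-AL array (0.49, or −0.22 with the trend on gene length removed). The lowest ratios were those of PRP38, needed for activation, with 243.6 on the labelled-DR array and 447.7 on the labelled-AL array (−0.88), and of PRP3, a U4/U6 protein, with 387.2 on the labelled-DR array and 674.1 on the labelled-AL array (−0.80). PRP38 overlaps SMD1 on the other strand by 6 bp of coding sequence. The 5 remaining genes had log2 ratios between −0.39 and 0.16.

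The Prp19 complex and the step factors held most of the ratios past 2-fold on the low side outside the Sm and Lsm classes. Of the 12 genes, 7 (58.3%) were more than 2-fold lower on the labelled-DR array, where 24.3% of all genes were. Only 1 (8.3%) was more than 2-fold higher, where 20.5% of all genes were. CWC2, which contacts the U6 RNA in the catalytic centre, had 85.6 on the labelled-DR array and 408.6 on the labelled-AL array (log2 ratio −2.26, raised −1.66). CWC23, a J-domain protein, had 306.5 on the labelled-DR array and 1391 on the labelled-AL array (−2.18). CWC27, of the cyclophilin family, had 389.4 on the labelled-DR array and 1530 on the labelled-AL array (−1.97). Factors of the chemical steps were among the low genes too. CWC25, which acts at the first step, gave 114.5 on the labelled-DR array and 395.6 on the labelled-AL array (−1.79, raised −1.61), and PRP18, which acts at the second, gave 133.9 on the labelled-DR array and 389.1 on the labelled-AL array (−1.54). CWC2, CWC23, CWC27 and CWC25 were each more than 3-fold lower. Just past 2-fold lay PRP45, the yeast SKIP protein, with 280.2 on the labelled-DR array and 584.9 on the labelled-AL array (−1.06), and CWC21, a small protein that binds PRP8, with 125.1 on the labelled-DR array and 254.9 on the labelled-AL array (−1.03), both under the stricter background. CWC22 was the exception in the other direction. This factor, needed for the first step, read 386.7 on the labelled-DR array and 118.8 on the labelled-AL array (1.70). Its labelled-AL signal lay under the stricter background, and its raised value of 0.46 was within 2-fold, so the gap to CWC2 was 3.96 on the log2 scale as deposited and 2.12 raised. PRP19 itself, the ubiquitin ligase that names the complex, had 719.1 on the labelled-DR array and 466.0 on the labelled-AL array (0.63). PRP46, CWC24 and CWC15 had log2 ratios between −0.68 and 0.16.

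Splicing genes with other symbols leaned lower on the labelled-DR array too. From 41 such genes, listed from textbook knowledge, 20 (48.8%) were more than 2-fold lower on the labelled-DR array, where 24.3% of all genes were. Only 1 was more than 2-fold higher, where 20.5% of all genes were, and the median log2 ratio was −0.98. With the trend on gene length removed, 14 were more than 2-fold lower, where 21.0% of all genes were, and the median was −0.90. With low signals raised 24 were lower past 2-fold, where 32.1% of all genes were, and none higher, where 14.1% were. Among these 24 were HUB1, IST3, SPP381, SYF1 and YSF3, under the stricter background on both arrays, whose raised value could only be −1.12. A ratio above 1 was left for 5 of the 41 in place of 11. The lowest were YJU2, a first-step factor, at 231.8 on the labelled-DR array and 1549 on the labelled-AL array (−2.74), and SNT309, a Prp19 partner, at 434.5 on the labelled-DR array and 2586 on the labelled-AL array (−2.57). The highest as deposited were BUD13, of the RES complex that retains unspliced RNA in the nucleus, at 235.2 on the labelled-DR array and 52.7 on the labelled-AL array (2.16, turning to −0.26 with the low signal raised), and NPL3, an RNA-binding protein of the SR type, at 7905 on the labelled-DR array and 4569 on the labelled-AL array (0.79).

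Setting members beside these partners, in groupings made after the values were seen, showed complexes that were uniform and complexes that were mixed. In SF3b, the partner of SF3a in U2, 4 of 6 genes (66.7%) were more than 2-fold lower on the labelled-DR array, where 24.3% of all genes were. The ratio was above 1 for 2 of the 6, though for none with signals raised to the stricter background. RDS3, a small SF3b subunit, had 87.1 on the labelled-DR array and 441.0 on the labelled-AL array (log2 ratio −2.34, raised −1.77), and HSH155, its large scaffold, had 183.9 on the labelled-DR array and 95.2 on the labelled-AL array (0.95, raised −0.61). The median of SF3b was −1.57 (raised −1.34) and that of SF3a 0.98 (raised 0.44). With the trend on gene length removed the medians were −1.17 for SF3b and 1.06 for SF3a. In that setting 3 SF3b genes were more than 2-fold lower, where 21.0% of all genes were, and 1 had a ratio above 1. In the U5 core, PRP8, BRR2 and SNU114 had ratios above 1, of which only 1 stayed above 1 with the trend on gene length removed, and DIB1, its smallest protein, read 233.7 on the labelled-DR array and 678.9 on the labelled-AL array (−1.54). Of 8 factors of the chemical steps, 6 (75%) were more than 2-fold lower, where 24.3% of all genes were, with a median of −1.48. None of the 8 was more than 2-fold higher, where 20.5% of all genes were. Of 9 genes of the Prp19 complex, 5 (55.6%) were more than 2-fold lower, against the same 24.3%, with a median of −1.09. The disassembly factors SPP382 and NTR2 shared the side of PRP43, the helicase they activate, although only 2 of the 3 had a ratio above 1 with signals raised to the stricter background or the median background signal added: NTR2 had 355.9 on the labelled-DR array and 233.4 on the labelled-AL array (0.61, raised 0.34), and SPP382 had 179.7 on the labelled-DR array and 150.0 on the labelled-AL array (0.26, raised −0.65).

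**Figure D3:**
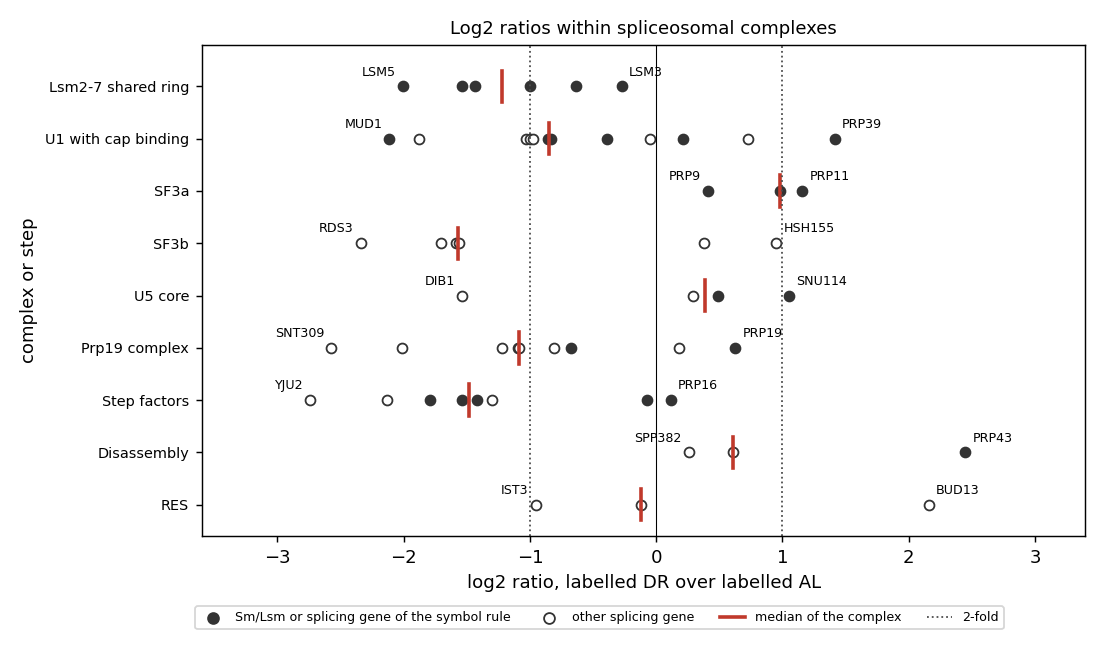
Log2 ratio (labelled-DR over labelled-AL) of genes in 9 complexes or steps, with genes of the symbol rule filled, other splicing genes open, the median of each complex as a red bar and dotted lines at 2-fold. SF3a lies above 0 (PRP9 at −0.71 with signals raised to the stricter background) and SF3b mostly below it, and the step factors lie mostly beyond 2-fold on the low side.

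Among members known also for work outside splicing, PRP43, SNU13 and LSM1 were past 2-fold with the higher signal on the labelled-DR array, and LSM12 had a ratio of 1.90. The shared Lsm genes, whose proteins serve the decay ring too, had ratios below 1 as given above. The first 4 of these genes were singled out after their values were seen. Without them, 5 of 53 members were more than 2-fold higher, where 20.5% of all genes were, and 19 were more than 2-fold lower, where 24.3% were. The median log2 ratio was then −0.63. Since all 4 had ratios above 1, leaving them out could not raise the median or the count of higher members. Partners of SNU13, PRP43 and LSM1 were measured as well. NOP1, NOP56 and NOP58, which form the box C/D snoRNP with Snu13, all had more than 2-fold the signal on the labelled-DR array. NOP58 had 4999 on the labelled-DR array and 171.1 on the labelled-AL array (log2 ratio 4.87, raised 4.15). NOP1 had 3514 on the labelled-DR array and 688.4 on the labelled-AL array (2.35), so all 3 ratios exceeded that of SNU13. The G-patch cofactors of PRP43 had ratios nearer to 1 than these box C/D genes, but PXR1 was still more than 2-fold higher. PXR1, which acts in ribosome assembly, had 658.1 on the labelled-DR array and 255.9 on the labelled-AL array (1.36, raised 1.22). SQS1 had 264.2 on the labelled-DR array and 261.1 on the labelled-AL array (0.02, raised −0.09). Of 8 partners of LSM1 in mRNA decay, 2 (25%) were more than 2-fold higher on the labelled-DR array, where 20.5% of all genes were. On the lower side stood 3 (37.5%), where 24.3% of all genes did. PAT1, which binds the Lsm1 ring, had 2022 on the labelled-DR array and 923.0 on the labelled-AL array (1.13), and DCP1, an activating subunit of the decapping enzyme, had 875.6 on the labelled-DR array and 297.3 on the labelled-AL array (1.56). DCP2, the catalytic subunit, read 405.3 on the labelled-DR array and 2285 on the labelled-AL array (−2.50), and EDC1, a decapping activator, read 82.7, under the stricter background, on the labelled-DR array and 2705 on the labelled-AL array (−5.03, raised −4.39).

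Gene length moved with these ratios. Sm and Lsm genes are short, with a median coding length of 306 bp and 416 bp, against 2591 bp for the helicases and 1236 bp for all genes. Among all genes, the median log2 ratio was −1.18 for the 243 genes of up to 300 bp, of which 57.2% were more than 2-fold lower on the labelled-DR array, and −0.55 for the 665 genes of over 300 and up to 600 bp, of which 36.5% were. It was 0.28 for the 821 genes over 2400 bp. Of the members, 4 of 6 with up to 300 bp and 8 of 16 with over 300 and up to 600 bp were more than 2-fold lower. Among members of over 600 and up to 1200 bp, 6 of 10 were more than 2-fold lower, where 22.6% of all genes of that length were. These 6 were CWC2, CWC23, CWC27, MUD1, PRP18 and PRP45. Longer members were seldom low: with over 1200 and up to 2400 bp, 0 of 18 were more than 2-fold lower, where 21.9% of all genes were. With over 2400 bp, 1 of 7 was, where 14.4% of all genes were. Across the 57 members, which share their arrays and are not independent replicates, the Spearman correlation of log2 ratio and length was 0.46, and across all 5449 genes it was 0.19. With the length trend of all genes removed, an alternative added after the values were seen, the median log2 ratio was −0.86 for Sm proteins. It was −0.34 for Lsm proteins and −0.36 for helicases. Of the 57 members, 13 were more than 2-fold lower, where 21.0% of all genes were. On the higher side 9 were past 2-fold, where 21.3% of all genes were. SMX2, LSM8, SMX3, SMD1 and LSM5 were still past 2-fold then. SMD3, SMB1, LSM2, LSM6 and LSM7 were not. The part of length in the remaining differences was not tested.

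**Figure D4:**
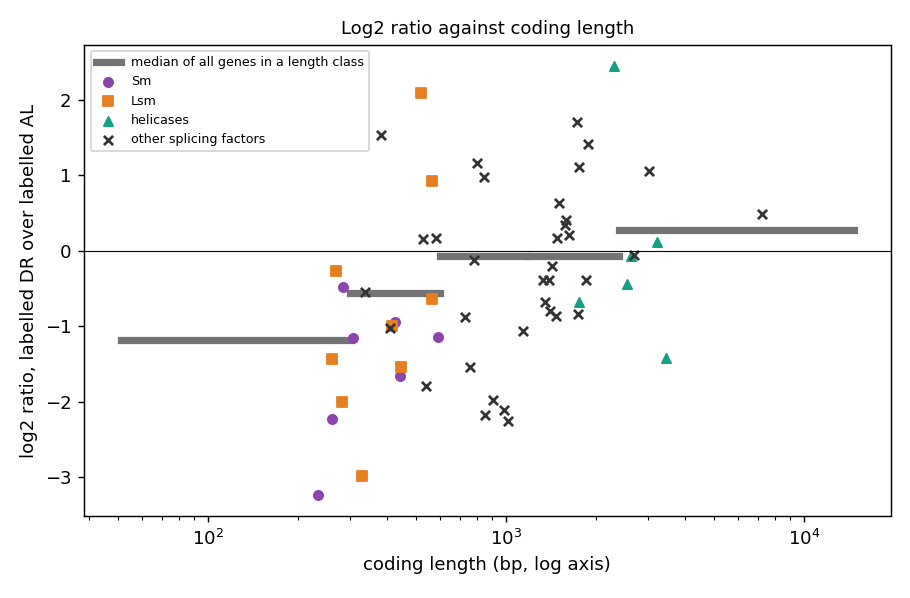
Log2 ratio (labelled-DR over labelled-AL) of each member against its coding length (bp, log axis), by class, with the median of all S. cerevisiae genes in 5 length classes as grey bars. The grey bars climb with length, between −1.18 for genes of up to 300 bp and 0.28 for genes over 2400 bp, and the Sm genes lie at the short end.

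**Figure D5:**
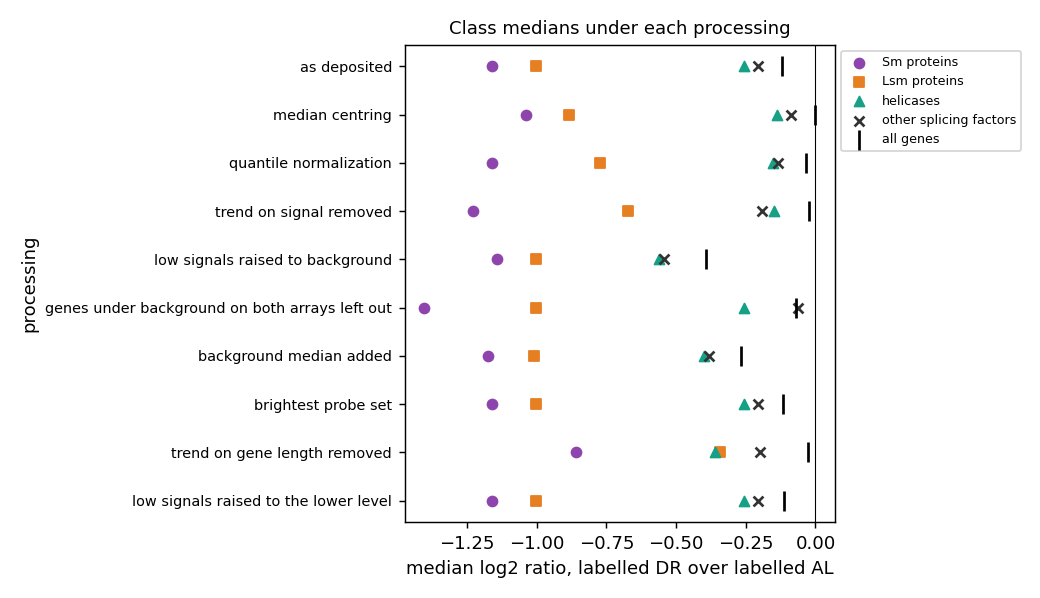
Class medians of the log2 ratio (labelled-DR over labelled-AL) and the median of all genes (black ticks) under the deposited values and 9 other ways of processing them. The Sm median stays between −1.40 and −0.86, and the Lsm median is −0.34 with the length trend removed, where it meets the helicases. The brightest probe set and the lower background could not move any class median.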

How the data were processed

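Both arrays were Affymetrix GeneChip Yeast Genome 2.0 arrays hybridized with biotin-labelled material from total RNA. Values deposited by the authors are linear intensities, 1 for each of 10928 probe sets, which a service laboratory had normalized with Affymetrix's statistical algorithms. Which version and target level were used, and how the arrays were scaled to each other, is not given in the sources used here. The number of arrays limits the precision. Groups were taken from the submitters' labels. For 105 genes the ratio could be set beside the study's listed ratio, and each lay within 5% of its reciprocal.

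Gene names came from an annotation of the platform that may be out of date. Of the probe sets 7244 had 1 gene symbol, 1 had several and 3683 had none, and 5498 matched the S. cerevisiae gene table by gene ID. Probe sets of a gene were averaged as log2 signals. Coding lengths, introns included, and overlaps come from the R64 gene table. The members, classes and lists were chosen with earlier results of these data known. All members are named or given by range: Sm, Lsm and helicase genes each with both signals, and in the other groups those past 2-fold and the 2 highest and 2 lowest ratios, while genes of complexes outside these lists were picked after their values were seen.

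Alternatives were median centring, quantile normalization, removal of the trend on signal (lowess, span 0.3), 3 treatments of low signals, the brightest probe set, means for medians, and thresholds of 1.5-fold and 3-fold. Removal of the trend on coding length, a lower background (the 95th percentile of named probe sets outside the gene table) and leaving out 4 members were added after the values were seen. Centring, quantile normalization and removal of the trends on signal and coding length were tested on simulated data. Fewer genes were changed there than passed 2-fold on these arrays. The treatments of low signals and the choice of the brightest probe set were not tested in this way. A planned search of promoter motifs and a comparison of Sm and Lsm protein sequences were not run, since no sequence table was used here. Scripts ran in Python 3.11.15 with statsmodels 0.14.6, matplotlib 3.10.9, pandas 2.3.3 and numpy 2.4.6.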

Additional observations from a re-analysis of the deposited data

How the results depend on the processing

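The median log2 ratios of all members, Sm proteins, Lsm proteins, helicases and other splicing factors kept their sign under every alternative. The brightest probe set and the lower background could not change these medians. Each member has 1 probe set, and every member signal lay above the lower background. The Lsm median moved most, to −0.34 with the trend on gene length removed. The median of all genes was itself never above 0. With genes under background on both arrays left out it was −0.07, and that of other splicing factors was −0.06. The mean of the helicases was −0.009, where the mean of all genes was −0.098. Every other setting placed both classes below all genes. The count of members more than 2-fold higher on the labelled-DR array was 8 as deposited, where 20.5% of all genes were. It was 3 with low signals raised to background (14.1% of all genes) and 5 with the median background signal added (15.9%). It was 5 without PRP43, SNU13, LSM1 and LSM12, chosen after their values were seen. The count more than 2-fold lower was 19 as deposited (24.3% of all genes). It was 24 with low signals raised to background (32.1%), of which 5 could only take −1.12. With the length trend removed it was 13 (21.0%). At a threshold of 3-fold, 3 members were higher and 10 lower. The direction of SNU66 turned, to −0.29, with low signals raised to background. The cause of these shifts was not tested. Of the members past 2-fold, 12 of the lower and 3 of the higher (PRP43, LSM1 and SNU13) stayed past it in all 8 alternatives that give each gene a value. Among these 8, the brightest probe set and the lower background could not move any member. The SMX2 log2 ratio ranged between −3.24 and −2.15, LSM8 between −3.07 and −1.69, LSM1 between 1.91 and 2.51, and PRP43 between 2.23 and 2.78. The median of all genes, −0.12 as deposited, was −0.39 with low signals raised to background, a level that is higher on the labelled-AL array, and 0.00 after centring. Low signals limit the ratios, as does the single array per condition: 25 members had a signal under background on at least 1 array. No paired analysis was possible because each condition has 1 array.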
